A study of Mus musculus with 8 samples.

Results

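The genes described here are 10 mouse genes of the thioredoxin, glutathione, antioxidant-response and metallothionein systems, namely Txnip, Txn1, Txnrd1, Nqo1, Gclc, Gclm, Hmox1, Srxn1, Mt1 and Mt2. They were chosen by gene symbol, and every probe set to which the platform annotation gave 1 of these symbols was taken. This gave 20 probe sets of 45101 on the array, and 10 genes of the 14004 tested. All 20 probe sets passed the filter on low signals, and 1 probe set, that with the highest mean signal, stood for each gene. RNA was measured on Affymetrix arrays, which read mainly the 3' end of a transcript, in 3 lines of mouse induced pluripotent stem (iPS) cells and 1 line of embryonic stem (ES) cells. iPS cells are made by bringing body cells back to pluripotency with reprogramming factors. iPS line 1, iPS line 2, iPS line 3 and the ES control had 2 arrays each, and the titles call these biological replicates. All 4 lines are of the C57BL/6 strain and male. They were collected between passage 7 and passage 10 and cultured in N2B27 medium with mouse leukaemia inhibitory factor. The labels describe the iPS lines as integration-free, meaning that no reprogramming vector stayed in the genome, and how many clones each line came from is not stated. The single ES line serves all comparisons with ES cells, so these share their 2 ES arrays. The 9 pluripotency markers examined were above the low-signal floor of 37.1 in every array, and of the 9 fibroblast markers on the array Col1a1, Col6a1, Dcn and Postn were under it in all 4 lines. Another of these markers, Pdgfrb, was higher in iPS line 2, with 247 and 177 against 58.2 and 55.9 in ES control (adjusted p = 0.00169). Of the 9 pluripotency markers, 2 passed an adjusted p under 0.05 in iPS line 2 against ES control and 7 did not, where 26.7% of all genes passed. These 2, Utf1 (-0.86, limma adjusted p = 0.000846) and Pou5f1 (-0.23, limma adjusted p = 0.0153), were lower in line 2 on the log2 scale of the tests. The summed signal of the 9 markers was 109400 to 112700 in line 2 and 107600 to 115600 in ES control.

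As background, thioredoxin and glutathione are the main thiol reductants of the cell. Thioredoxin is kept reduced by thioredoxin reductase and is bound by Txnip, which is induced by glucose through the factors MondoA and Mlx. When electrophiles or oxidants modify Keap1, the transcription factor Nrf2 (gene Nfe2l2) escapes degradation and switches on Nqo1, Gclc, Gclm, Hmox1, Srxn1 and Txnrd1 through antioxidant response elements. Metallothioneins are small cysteine-rich proteins that bind zinc, copper and cadmium, and the zinc sensor Mtf1 induces them through metal response elements.

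The RefSeq promoter windows of the genes whose signal differed between lines, and of Mt2 as the neighbour of Mt1, are shown first, so that the elements these pathways are known to use can be set beside the signals. Each window holds 250 bases before and 50 bases after the annotated gene start in build GRCm38.p6, read 5′ to 3′ along the gene's strand. Capitals mark every match, on either strand, to the motifs described in the next paragraph. Txnip lies on chromosome 3 between Hjv and Polr3gl (chr3:96557707-96558006, plus strand), and Nqo1 on chromosome 8 between Nfat5 and Nob1 (chr8:107403156-107403455, minus strand). Mt1 (chr8:94178839-94179138, plus strand) and Mt2 (chr8:94172368-94172667, plus strand) are neighbours on chromosome 8, next to Mt3.
Txnip: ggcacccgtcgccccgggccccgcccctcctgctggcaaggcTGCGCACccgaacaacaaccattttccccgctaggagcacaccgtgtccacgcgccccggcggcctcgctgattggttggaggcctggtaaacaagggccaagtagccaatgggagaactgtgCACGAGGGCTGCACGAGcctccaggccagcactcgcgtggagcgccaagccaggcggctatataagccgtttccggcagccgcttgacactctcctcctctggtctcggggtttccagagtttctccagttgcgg
Nqo1: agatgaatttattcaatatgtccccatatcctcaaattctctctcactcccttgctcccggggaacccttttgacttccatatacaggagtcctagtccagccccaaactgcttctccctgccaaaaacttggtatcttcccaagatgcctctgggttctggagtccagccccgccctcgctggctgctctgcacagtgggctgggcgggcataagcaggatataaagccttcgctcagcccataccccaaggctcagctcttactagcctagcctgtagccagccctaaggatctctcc
Mt1: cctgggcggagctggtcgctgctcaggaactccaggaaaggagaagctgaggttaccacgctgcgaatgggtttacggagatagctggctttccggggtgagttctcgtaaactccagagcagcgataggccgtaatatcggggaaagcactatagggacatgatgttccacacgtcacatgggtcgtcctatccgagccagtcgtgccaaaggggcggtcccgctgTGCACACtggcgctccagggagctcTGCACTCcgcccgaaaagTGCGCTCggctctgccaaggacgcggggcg
Mt2: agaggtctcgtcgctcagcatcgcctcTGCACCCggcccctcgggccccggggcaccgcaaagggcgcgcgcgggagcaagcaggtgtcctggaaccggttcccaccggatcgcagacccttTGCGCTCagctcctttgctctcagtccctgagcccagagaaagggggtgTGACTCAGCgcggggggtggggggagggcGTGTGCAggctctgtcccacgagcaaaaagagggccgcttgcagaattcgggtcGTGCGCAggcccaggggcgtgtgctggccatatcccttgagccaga

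Both strands were searched for the antioxidant response element core TGACNNNGC, for the metal response element cores TGCGCNC and TGCACNC, for the E-box CACGTG, and for the paired repeat CACGAGNNNNNCACGAG, which has the form of the carbohydrate response elements that MondoA and Mlx bind. Of 32851 RefSeq promoter windows of the same length, 12.4% held the antioxidant core, 15.4% and 12.6% held the metal cores TGCGCNC and TGCACNC, and 7.15% held the E-box. The paired repeat was found in 1 window (0.00304%), that of Txnip, at position -85 from the gene start. Its letters were chosen with the known Txnip element in mind, so this match is by construction. The Txnip window also held a metal core at -208. The Mt1 window held metal cores at -23, 2 and 20. The Mt2 window held them at -223, -128, -50 and 4, and an antioxidant core at -79. The Nqo1 window held none of these motifs. Sequence outside the windows was not searched, so an element further upstream of Nqo1 would have been missed. Whether Nqo1 lacks an antioxidant response element was therefore not tested. Windows were given for 8 of the 10 genes, and among the others an antioxidant core was present in those of Gclm, Srxn1 and 1 of the 3 Txnrd1 windows. The Gclm core overlapped a TGCGCNC match, while no matches overlapped in the printed windows. A match describes letters in a window and is not evidence of binding.

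Signals are MAS5 intensities on a linear scale, and all 8 arrays had the same trimmed mean of 500.004. Differences are on the log2(signal + 12) scale, with the standard error (SE) from limma, and a gene was called where its Benjamini-Hochberg adjusted p over all 14004 genes was under 0.05. The labels do not say whether replicate arrays came from separate cultures, so the p-values cover only the spread between replicate arrays, possibly technical. In bulk RNA a difference in the number of cells of a kind and one in RNA per cell cannot be told apart. iPS line 2 stood apart from the other lines over the whole array, with 26.7% of all genes called against ES control, compared with 2.34% in iPS line 1 and 4.15% in iPS line 3. Its arrays also had beta-actin 3'/5' control ratios of 1.74 and 1.79, against 1.49 to 1.62 in the other 6 arrays. The Gapdh 3'/5' ratios overlapped, with 0.915 and 0.946 in line 2 against 0.856 to 0.935 in the other 6. Gene-level calls for the mean of the 3 iPS lines are therefore also given without line 2, singly or as list counts. Over all 14004 genes, 1022 were called for that mean and 491 without line 2. With the 4 line means as the samples, limma called 0 of 14004 genes for that mean and 282 had an unadjusted p under 0.05, so each call for the mean below, of the 10 genes and of the lists, rests on the spread between replicate arrays and not on that between iPS lines.

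Txnip and Nqo1 were the genes of the 10 whose signal differed most between the 4 lines, Txnip being highest and Nqo1 lowest in iPS line 2. Over the 4 lines, the median gap between the highest and the lowest line mean was 0.21 log2 units for the 10 genes and 0.48 for all genes tested. The lowest line mean signal of the 10 genes was 348, while a gene tested needed only 2 arrays above 37.1. The gaps were not compared at matched signal. The gap was 1.12 for Txnip and 0.67 for Nqo1, against 0.25 or less for the other 8. A limma F test for any difference among the 4 lines called 2 of the 10, Txnip (adjusted p = 1.65e-06) and Nqo1 (adjusted p = 0.00513), where 30.7% of all genes were called. Against ES control, the mean of the 3 iPS lines gave 2 calls among the 10, where 7.30% of all genes were called, 4.27% higher and 3.03% lower. Of the single lines, iPS line 1 gave 0, iPS line 2 gave 3 and iPS line 3 gave 0. At an unadjusted p under 0.05 the limma counts were 4 for the mean, 2 for iPS line 1, 3 for iPS line 2 and 2 for iPS line 3, where 21.5%, 14%, 37.1% and 17.7% of all genes passed that threshold. The shares of the 10 genes in the single lines were thus near those of all genes. The median difference of the 10 genes from ES control was 0.08 in iPS line 1, 0.10 in iPS line 2 and 0.05 in iPS line 3, against 0.01, 0.07 and -0.01 for all genes.

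**Figure D1:**
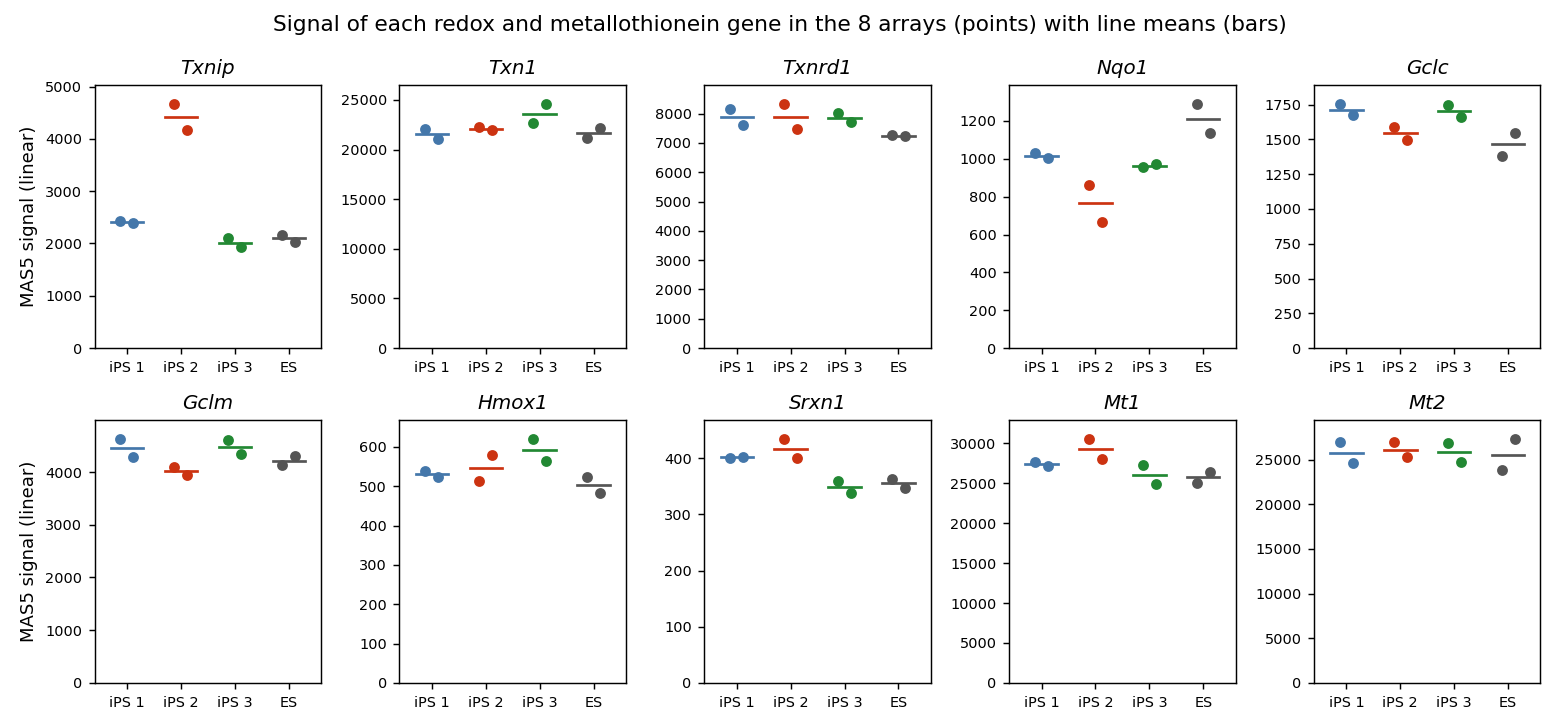
MAS5 signal of the 10 genes in the 8 arrays, 1 panel per gene, with points for arrays and bars for the mean of the 2 arrays of a line, each axis starting at 0. The arrays of iPS line 2 are highest for Txnip (4164 and 4658) and lowest for Nqo1 (664 and 864), while the 8 arrays of Mt2 lie between 23850 and 27290.

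Txnip, the inhibitor of thioredoxin that also limits glucose uptake, was about 2.09-fold higher in iPS line 2 than in ES cells. Its signal was 2422 and 2400 in iPS line 1, 4658 and 4164 in iPS line 2, and 2097 and 1935 in iPS line 3, against 2170 and 2026 in ES control. Both line 2 arrays were above all other arrays, both line 1 arrays were above both ES arrays, and the arrays of line 3 overlapped those of ES control. Line means were 2411 ± 15.6, 4411 ± 349, 2016 ± 114 and 2098 ± 102 (SD, n = 2 each) in the same order. The log2 difference from ES control was 1.07 in line 2 (95% interval 0.90 to 1.23, limma adjusted p = 1.15e-06). It was 0.20 in line 1 (SE 0.08, adjusted p = 0.25) and -0.06 in line 3 (SE 0.08, adjusted p = 0.761). In order of level the lines ran line 2, line 1, ES control and line 3, and only the step between line 2 and line 1 passed the test. Line 2 exceeded line 1 by 0.87 (1.82-fold, adjusted p = 1.29e-05) and line 3 by 1.12 (2.18-fold, adjusted p = 7.01e-07), where 23.3% and 31.2% of all genes were called. Line 1 exceeded line 3 by 0.26, which did not pass the test (adjusted p = 0.136, with 1.39% of all genes called).

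The second Txnip probe set was also highest in line 2. It read 420 and 330 in iPS line 1, 608 and 501 in iPS line 2, and 289 and 277 in iPS line 3, against 305 and 288 in ES control. In a fit over all probe sets that passed the filter it was 0.87 higher in line 2 than in ES control (SE 0.15, adjusted p = 0.00121) and -0.06 apart in line 3 (adjusted p = 0.889). The mean of the 3 iPS lines exceeded ES control by 0.40 for the main probe set (SE 0.06, adjusted p = 0.00188). Without the second ES array this difference was 0.35 (adjusted p = 0.0509), and without iPS line 2 it was 0.07 and was not called.

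Nqo1, the quinone reductase that is the customary readout of Nrf2 activity, was lower in iPS cells than in ES cells. Its only probe set read 1030 and 1002 in iPS line 1, 864 and 664 in iPS line 2, and 955 and 974 in iPS line 3, against 1287 and 1135 in ES control. Each of the 6 iPS arrays was under both ES arrays, and both line 2 arrays were under those of the other iPS lines. The mean of the 3 iPS lines was 0.41 log2 units below ES control (SE 0.09, 1.33-fold lower, adjusted p = 0.0195). In line 2 the log2 difference was -0.67 (95% interval -0.92 to -0.41, 1.59-fold lower, adjusted p = 0.00105). The differences of -0.25 in line 1 (adjusted p = 0.369) and -0.32 in line 3 (adjusted p = 0.162) did not pass. Line 2 was also lower than line 1, with a difference of -0.42 (adjusted p = 0.0205), and than line 3, with -0.34 (adjusted p = 0.0398). The mean difference from ES control was -0.32 without the first ES array (adjusted p = 0.26), -0.50 without the second (adjusted p = 0.0607), and -0.29, also not called, without iPS line 2. Without the second line 2 array, Nqo1 differed by -0.23 from line 1 (adjusted p = 0.177) and by -0.16 from line 3 (adjusted p = 0.341). Leaving out either line 1 array ended the calls against both lines (adjusted p of 0.052 to 0.0965), and leaving out either line 3 array ended that against line 3 (0.109 and 0.141).

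**Figure D2:**
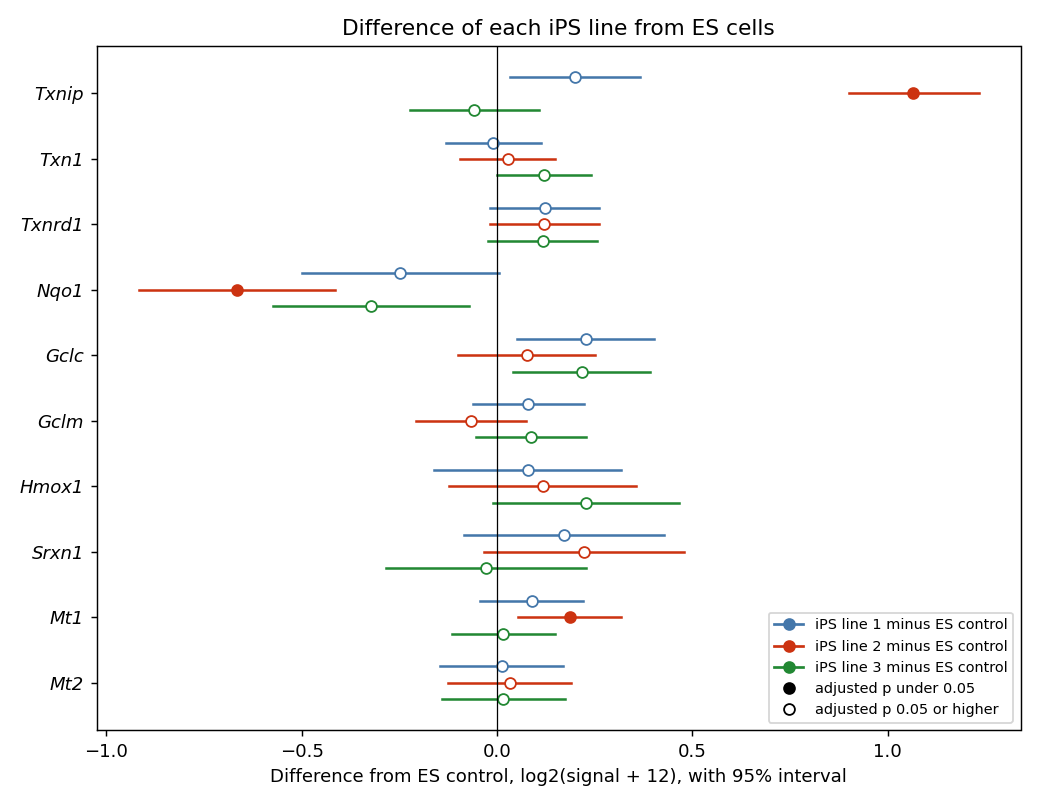
Difference of each iPS line from ES control on the log2(signal + 12) scale for the 10 genes, with points for the estimates, bars for 95% intervals from limma, and filled points for an adjusted p under 0.05. The filled points are Txnip (1.07), Nqo1 (-0.67) and Mt1 (0.19), all of iPS line 2.

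Thioredoxin, its reductase and sulfiredoxin were not called in any comparison on their main probe sets with signals as deposited. After median centring thioredoxin (Txn1) was called, lower in line 2 than in line 3 (limma adjusted p = 0.0362). Txn1 encodes cytosolic thioredoxin, and its signal was 22060 and 21040 in iPS line 1, 22220 and 21980 in iPS line 2, and 22660 and 24540 in iPS line 3, against 21200 and 22180 in ES control. The arrays of lines 1 and 2 overlapped those of ES control, and both arrays of line 3 were above them. In line 2 the Txn1 difference from ES control was 0.03, with a 95% interval from -0.09 to 0.15. Txnrd1, the cytosolic thioredoxin reductase, read 8175 and 7615 in iPS line 1, 8314 and 7482 in iPS line 2, and 8006 and 7721 in iPS line 3, against 7255 and 7243 in ES control. All 6 iPS arrays were above both ES arrays. The mean difference of 0.12 (SE 0.05) had an adjusted p of 0.209 and was not called. Srxn1, sulfiredoxin, which repairs overoxidised peroxiredoxins, read 401 and 403 in iPS line 1, 434 and 401 in iPS line 2, and 359 and 338 in iPS line 3, against 363 and 348 in ES control. The arrays of lines 1 and 2 were above both ES arrays, and those of line 3 overlapped them. The difference of 0.22 in line 2 had a 95% interval from -0.03 to 0.48. The second Txn1 probe set was dim, between 37.8 and 157, as were the other Txnrd1 probe sets, between 318 and 428 and between 113 and 299. In the F test over probe sets none of these, nor the 3 dimmer Srxn1 probe sets, was called (adjusted p of 0.381 or higher).

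The 2 subunits of glutamate-cysteine ligase, the rate-limiting enzyme of glutathione synthesis, were not called in any comparison on their main probe sets with signals as deposited. Gclc, the catalytic subunit, read 1751 and 1678 in iPS line 1, 1589 and 1497 in iPS line 2, and 1745 and 1659 in iPS line 3, against 1383 and 1547 in ES control. Lines 1 and 3 were above both ES arrays and line 2 overlapped them. The Gclc difference was 0.23 in line 1 (95% interval 0.05 to 0.40) and 0.22 in line 3 (0.04 to 0.39), and neither passed the test after adjustment. The second Gclc probe set differed by 0.17 in line 1 (adjusted p = 0.579) and 0.27 in line 3 (adjusted p = 0.232). Gclm, the modifier subunit, read 4624 and 4290 in iPS line 1, 4092 and 3948 in iPS line 2, and 4613 and 4341 in iPS line 3, against 4126 and 4298 in ES control. In line 2 both Gclm arrays were below both ES arrays, with a difference of -0.07 (95% interval -0.21 to 0.07).

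The dimmer Gclm probe set gave other values. It read 685 and 762 in iPS line 1, 417 and 444 in iPS line 2, and 766 and 773 in iPS line 3, against 883 and 788 in ES control. All 6 iPS arrays were below both ES arrays, and both line 2 arrays were far below the rest. In the fit over probe sets it was 0.94 log2 units lower in line 2 than in ES control (1.91-fold lower, SE 0.11, adjusted p = 5.84e-05). The line 2 difference was -0.73 from line 1 (adjusted p = 0.000538) and -0.82 from line 3 (adjusted p = 0.00012). The mean of the 3 iPS lines was also lower on this probe set, with a difference of -0.42 from ES control (SE 0.09, adjusted p = 0.0148), while those of line 1 (-0.21, adjusted p = 0.495) and line 3 (-0.12, adjusted p = 0.668) were not called. The probe sets of Gclm therefore disagree, since the brighter one had a line 2 difference from ES control of -0.07 (adjusted p = 0.544) in the same fit. Which transcripts each probe set reads was not tested.

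**Figure D3:**
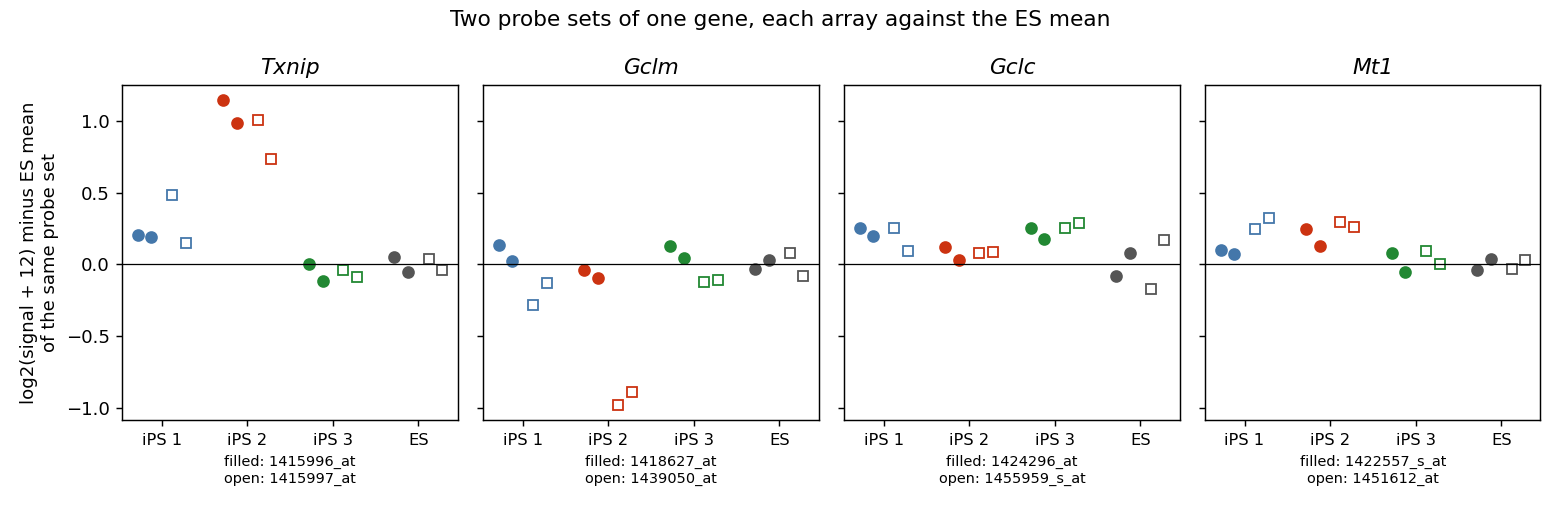
Signals of both probe sets of Txnip, Gclm, Gclc and Mt1 in each array, as log2(signal + 12) minus the ES mean of the same probe set, with filled circles for the brighter and open squares for the dimmer probe set. In iPS line 2 both Txnip probe sets lie high, whereas for Gclm the dimmer probe set lies 0.94 below ES control and the brighter one 0.07 below it.

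Hmox1, the inducible haem oxygenase that breaks haem down to biliverdin, iron and carbon monoxide, read 539 and 524 in iPS line 1, 515 and 580 in iPS line 2, and 620 and 564 in iPS line 3, against 523 and 483 in ES control. The arrays of lines 1 and 3 were above both ES arrays and those of line 2 overlapped them. The largest Hmox1 difference was 0.23 in line 3 (95% interval -0.01 to 0.47), which was not called. Of the 6 classic Nrf2 targets among the 10 genes, 1, Nqo1, was called on its main probe set in line 2 against ES control and in the F test, where 26.7% and 30.7% of all genes were called. After median centring Gclm was also called on its main probe set in line 2, against line 1 (-0.27, adjusted p = 0.0366) and against line 3 (-0.29, adjusted p = 0.0203).

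The metallothioneins Mt1 and Mt2 gave bright signals in every array. Mt1 read 27660 and 27110 in iPS line 1, 30530 and 28100 in iPS line 2, and 27250 and 24870 in iPS line 3, against 25090 and 26410 in ES control. Lines 1 and 2 were above both ES arrays, and line 3 overlapped them. In line 2 the Mt1 difference was 0.19 (95% interval 0.05 to 0.32, 1.14-fold higher, adjusted p = 0.0379), where 16.1% of all genes were higher and 10.6% lower. This call was lost under 7 of 20 alternatives, among them quantile normalization, centring of the arrays and leaving out 1 array. It was 0.15 without the first ES array (adjusted p = 0.208), 0.22 without the second (adjusted p = 0.0611) and 0.13 without the first line 2 array (adjusted p = 0.248). Line 2 exceeded line 3 by 0.17 on the main Mt1 probe set (adjusted p = 0.0503) and line 1 by 0.10 (adjusted p = 0.288). Neither difference was called, and that from line 3 was called under 7 of 20 alternatives, among them quantile normalization. The dimmer Mt1 probe set read 1141 and 1204 in iPS line 1, 1184 and 1155 in iPS line 2, and 1028 and 966 in iPS line 3, against 940 and 983 in ES control. Its difference from ES control was 0.28 in line 2 (adjusted p = 0.035) and 0.28 in line 1 (adjusted p = 0.181).

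Mt2 read 26940 and 24570 in iPS line 1, 26950 and 25270 in iPS line 2, and 26860 and 24790 in iPS line 3, against 23850 and 27290 in ES control. The ES arrays spanned all 6 iPS arrays. Its differences from ES control were 0.01, 0.03 and 0.02 in iPS lines 1, 2 and 3, with 95% intervals that stayed within -0.15 and 0.19. The deposited values carry no saturation flags, so whether signals as bright as those of Mt1, Mt2 and Txn1 were compressed was not tested. The Mt1 probe set used is of the _s_at type, which can hybridise to more than 1 transcript.

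Mt4, a metallothionein known from stratified epithelium and no member of the 10, was the metallothionein with the clearest difference. Its signal was 720 and 727 in iPS line 1, 595 and 671 in iPS line 2, and 350 and 313 in iPS line 3, against 227 and 254 in ES control. All 6 iPS arrays were above both ES arrays. The mean of the iPS lines exceeded ES control by 1.11 (2.16-fold, SE 0.10, adjusted p = 2.46e-05). The difference was 1.54 in line 1 (adjusted p = 2.71e-05), 1.35 in line 2 (adjusted p = 6.54e-06) and 0.44 in line 3 (adjusted p = 0.062). Without line 2 the mean difference was 0.99 (adjusted p = 0.000454). Mt3, which lies beside Mt2, read between 29.1 and 130 and was not called, and the zinc sensor Mtf1 was not called in any line.

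In the mean of the iPS lines, 2 of 24 tested genes of metal response, zinc and copper handling were higher and 1 was lower. Of all genes, 4.27% were higher and 3.03% lower in that mean. The zinc transporter gene Slc30a9 was higher by 0.46 (adjusted p = 0.00604) and the zinc and iron importer Slc39a14 was lower, with -0.39 (adjusted p = 0.0374). Without line 2 these differences were 0.12 (adjusted p = 0.587) and 0.19 (adjusted p = 0.336). The difference of Slc39a14 was -1.55 in line 2 (adjusted p = 2.94e-06), against 0.02 in line 1 and 0.37 in line 3. In iPS line 1, where 1.21% of all genes were higher and 1.12% lower, 2 list genes were higher and 0 lower, Mt4 and the zinc exporter Slc30a1 (0.41, adjusted p = 0.0175), itself a known Mtf1 target. In iPS line 2, where 16.1% of all genes were higher and 10.6% lower, 5 list genes were higher and 3 lower. In iPS line 3, 1.58% of all genes were higher and 2.57% lower. There 0 list genes were called by limma and 3 had an unadjusted p under 0.05. The list's median difference from ES control was 0.05, 0.06 and -0.02 in lines 1, 2 and 3. Without line 2, Mt4 was the 1 gene of this list called in the mean of the other iPS lines, where 491 of all 14004 genes were called.

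The glutathione list, 27 tested genes of synthesis and use besides Gclc and Gclm, had 5 higher and 3 lower genes when the iPS lines were averaged, where 4.27% of all genes were higher and 3.03% lower. Gsto1, an omega-class glutathione transferase that reduces dehydroascorbate and mixed disulfides, read 5641 and 6100 in iPS line 1, 2847 and 3569 in iPS line 2, and 4921 and 5274 in iPS line 3, against 9180 and 9007 in ES control. It was lower in all 6 iPS arrays than in both ES arrays, with differences of -0.63 in line 1 (adjusted p = 0.00237), -1.51 in line 2 (adjusted p = 3.26e-07) and -0.83 in line 3 (adjusted p = 0.000325). Gpx7, a peroxidase of the endoplasmic reticulum, was lower in line 1, by a difference of -0.56 (adjusted p = 0.0315), and in line 3, by -0.51 (adjusted p = 0.0376). The microsomal transferase Mgst3 was higher in line 2 (0.83, adjusted p = 0.000174) and in line 3 (0.49, adjusted p = 0.0325). In line 2, 10 list genes were higher and 4 lower, where 16.1% and 10.6% of all genes were, with a list median of 0.17 against 0.07 for all genes. Chac1, which degrades glutathione and is a target of the amino acid stress factor Atf4, was higher in line 2 by 1.47 (adjusted p = 2.97e-05). Glutathione reductase (Gsr) and glutathione synthetase (Gss) were not called in any line. Without line 2 the calls in the mean were Gsto1 (-0.73, adjusted p = 3.72e-05), Gpx7 (-0.53, adjusted p = 0.0165) and Mgst3 (0.41, adjusted p = 0.0487). Of all 14004 genes, 491 were called in that fit.

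Among 22 tested thioredoxin, peroxiredoxin and glutaredoxin genes besides Txn1, Txnrd1 and Srxn1, 0 were called by limma for the averaged iPS lines and 0 for iPS line 1. Of all genes, 7.30% and 2.34% were called there. At an unadjusted p under 0.05 there were 4 in each, where 21.5% and 14% of all genes passed. Without line 2, 0 were called for the mean, where 491 of all 14004 genes were. At an unadjusted p under 0.05 there were 6, where 16.5% of all genes passed. In iPS line 2, 1 was higher and 4 were lower, where 16.1% and 10.6% of all genes were. The lower genes included Txndc9 (-0.48, adjusted p = 0.000167), a thioredoxin-like protein, and the glutaredoxin Glrx (-1.55, adjusted p = 0.0042). Glrx was dim, with 22.7 and 40.9 in line 2 against 94.6 and 135 in ES control. Mitochondrial thioredoxin (Txn2) was not called in any line. In iPS line 3 the peroxiredoxin Prdx4 was higher by 0.27 (adjusted p = 0.0419). The peroxiredoxins Prdx1, Prdx5 and Prdx6 were listed but not tested.

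Of 11 Nrf2 regulators, 5 were called in iPS line 2, where 26.7% of all genes were, and Nrf2 and Keap1 were not among them. Nfe2l2, which encodes Nrf2, read 3487 and 3538 in iPS line 1, 3675 and 3730 in iPS line 2, and 3555 and 3377 in iPS line 3, against 3516 and 3621 in ES control. Its difference of 0.05 in line 2 was not called (adjusted p = 0.583), and Keap1 was not called in any line. In the mean of the iPS lines 1 regulator was called, the repressor Bach2 (-0.78, adjusted p = 0.0131), which read 65.7 and 89.6 in line 2 against 206 and 242 in ES control. In line 2, 3 were higher, including the small Maf gene Maff (1.01, adjusted p = 0.000755) and the repressor Bach1 (0.25, adjusted p = 0.0121), and 2 were lower, Bach2 (-1.41, adjusted p = 0.00028) and Cul3 (-0.37, adjusted p = 0.00184), the ligase scaffold that acts with Keap1. By limma, 0 regulators were called in line 1, in line 3 and in the mean without line 2, with 1, 1 and 2 at an unadjusted p under 0.05, which 14%, 17.7% and 16.5% of all genes passed.

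Of 17 other tested Nrf2 targets, 4 were higher and 3 lower in iPS line 2, where 16.1% and 10.6% of all genes were, and 0 were called by limma in lines 1 and 3, with 4 at an unadjusted p under 0.05 in each, where 14% and 17.7% of all genes were. The list held 22 genes, and the known targets G6pdx, Ftl1, Osgin1, Slc7a11 and Prdx1 were not tested. The export pump Abcc1 was higher in line 2 by 0.82 (adjusted p = 8.4e-06) and the epoxide hydrolase Ephx1 by 1.20 (adjusted p = 0.000263). The carbonyl reductase Cbr3 was lower there, with -0.61 (adjusted p = 0.00222), as was the pump Abcc4, with -0.38 (adjusted p = 0.00163). Malic enzyme (Me1), which makes NADPH, was lower over the averaged iPS lines, with -0.35 (adjusted p = 0.0416), and without line 2, with -0.47 (adjusted p = 0.03). Abcc1 was higher over the averaged lines by 0.25 (adjusted p = 0.0258), and without line 2 it stood at -0.03 (adjusted p = 0.864). The list's median difference in line 2 was -0.03. Of 14 haem and iron genes, 2 were higher and 1 lower over the averaged iPS lines, where 4.27% and 3.03% of all genes were. Without line 2 the calls were the iron exporter Slc40a1 (1.00, adjusted p = 0.0275) and the biliverdin reductase Blvra (-0.38, adjusted p = 0.0427), and the transferrin receptor Tfrc was no longer called (0.14, adjusted p = 0.227). Of all 14004 genes, 491 were called in that fit. Slc40a1 was dim, with 151.8 and 156.1 in line 1 and 136.5 and 108.4 in line 3, against 73.13 and 52.98 in ES control. In line 2 the haem exporter Flvcr1 was lower (-1.02, adjusted p = 0.000166) while Hmox2, the constitutive haem oxygenase, was not called. Of 7 superoxide and peroxide enzymes, 0 were higher and 2 lower in line 2, Sod2 (-0.20, adjusted p = 0.0325) and the copper chaperone Ccs (-0.26, adjusted p = 0.0321).

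**Figure D4:**
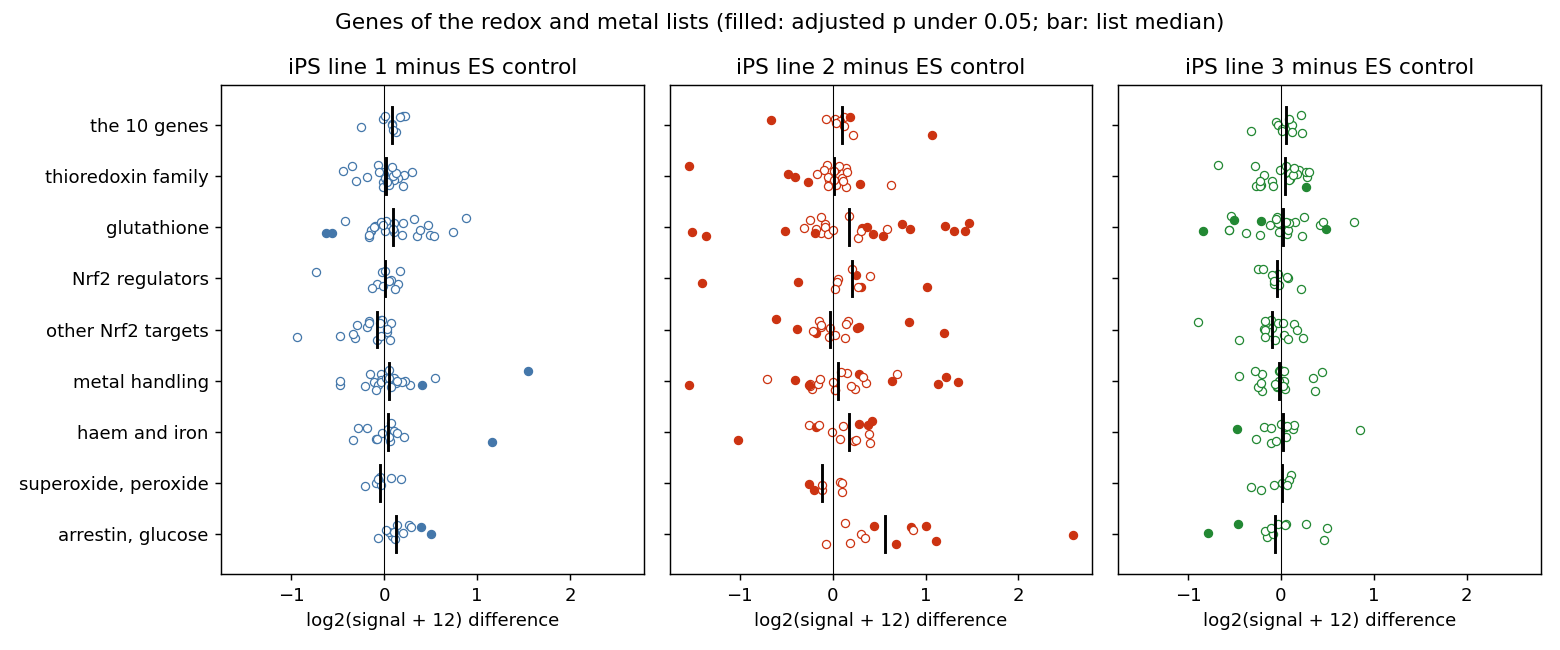
Differences of iPS lines 1, 2 and 3 from ES control on the log2(signal + 12) scale for the genes of 9 lists, with filled points for an adjusted p under 0.05 and a black bar for each list's median. In iPS line 2 the list of arrestin-domain and glucose-sensing genes has a median of 0.56, against 0.13 in line 1 and -0.06 in line 3.

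The genes related to Txnip by family or by glucose control did not form a single pattern. Arrdc4, the arrestin-domain relative of Txnip that MondoA is also known to induce, read 815 and 694 in iPS line 1, 840 and 808 in iPS line 2, and 809 and 942 in iPS line 3, against 748 and 702 in ES control. Its line 2 difference was 0.18 (adjusted p = 0.251), and Arrdc3, Mlx and Mlxip, which encodes MondoA, were not called in any line either. Of the 12 genes of this list, 6 were higher and 0 lower in line 2, 2 higher in line 1, and 2 lower in line 3. Of all genes, 16.1% were higher and 10.6% lower in line 2, 1.21% and 1.12% in line 1, and 1.58% and 2.57% in line 3. The higher genes included the glucose transporter Slc2a1, with 15740 and 15970 in line 2 against 8105 and 7631 in ES control (1.01, adjusted p = 3.98e-07), and hexokinase Hk1 (1.11, adjusted p = 5.35e-06). Ddit4, an inhibitor of mTORC1 induced by stress and low oxygen, read 8341 and 8280 in line 2 against 1300 and 1447 in ES control (2.59, adjusted p = 5.13e-10). Of 17 genes known to be induced by low oxygen, 15 were higher and 1 lower in line 2, with a list median of 1.19 and with Ndrg1 (3.41, adjusted p = 2.9e-10) and Bnip3 (2.74, adjusted p = 2.9e-10) furthest. In line 1, 5 were higher and 0 lower, and in line 3, 1 was higher and 4 lower. Without line 2, 491 of all 14004 genes were called for the mean of the remaining iPS lines. There 2 of these 17 were higher and 0 lower, and of the 12 glucose-sensing and arrestin-domain genes 0 were higher and 1, Hk1, was lower. Txnip thus ran high in the same line as these genes, and their part in its level was not tested. The summed signal of 9 fibroblast markers was 268 to 283 in line 1, 425 to 486 in line 2 and 261 to 303 in line 3, against 232 to 240 in ES control, and its part in these differences was not tested. Within that list Col1a1, Col3a1, Col6a1, Dcn and Postn were under the floor in line 2, while Pdgfrb was 3.20-fold higher there than in ES control and was also called against line 1 (adjusted p = 0.00187) and line 3 (adjusted p = 0.000127).

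The genes whose signals ran most like those of Txnip and Nqo1 were taken by Pearson correlation over the 8 arrays among 6712 genes whose line means spanned at least 0.5 log2 units. The 8 arrays are 4 pairs of replicates, and line 2 sets much of the spread, so these values are descriptive. For Txnip the leading genes were Grasp (r = 0.994), Spag9 (0.993), Cdc7 (0.993), Fam162a (0.993) and Fos (0.992). For Nqo1 they were Pex3 (0.97), Agtrap (0.969), Tcl1 (0.968), Ubxn1 (0.96) and Qpctl (0.958).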

How the data were processed

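RNA of 3 iPS lines and 1 ES line was measured on 8 arrays. The deposited values are linear MAS5 intensity signals per probe set, per the submitters' processing notes, and neither the MAS5 version nor detection calls are stated there. Probe sets were named from the platform annotation. It gave 1 symbol for 34945 of 45101 probe sets, several for 932 and none for 9160, and 64 are Affymetrix controls. Signals were used as log2(signal + 12), where 12 is their 20th percentile, so differences of dim genes are understated. Probe sets above 37.1, the 40th percentile, in at least 2 arrays were kept, and the brightest stood for each of 14004 genes. Listed genes without a kept probe set of 1 symbol were not tested.

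Differences were tested two-sided with limma 3.58.1 in R 4.3.3, in a group-means model over all 8 arrays with an intensity trend, 4 residual and 12.3 moderated degrees of freedom, and Benjamini-Hochberg adjustment over all genes. A simulated run of the script was tested first. The array number limits the precision. Genes named beside the 10 are up to 4 called members of each list in each comparison with the smallest adjusted p. Arrdc3, Arrdc4, Gsr, Gss, Hmox2, Keap1, Mlx, Mlxip, Mt3, Mtf1, Nfe2l2 and Txn2 are named outside this rule, for their role, after their values were seen. The members and lists were chosen with earlier results of these data known. The alternatives were quantile normalization, median centring, other pseudocounts and filters, other rules for probe sets, no variance trend, a replicate block, fewer samples and line means as samples. The list counts without iPS line 2 were added after seeing the data.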

Additional observations from a re-analysis of the deposited data

Results flagged for a closer look

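Txnip and Nqo1 each differed from ES control to an unequal extent in the iPS lines, as tested directly between lines with limma. Txnip was higher in iPS line 2 than in iPS line 1 by 0.8662 log2 units (SE 0.0764, adjusted p = 1.29e-05) and than in iPS line 3 by 1.124 (SE 0.0764, adjusted p = 7.01e-07). Both line 2 arrays were above all arrays of lines 1 and 3. Both Txnip calls were kept under all 20 alternatives. Nqo1 was lower in iPS line 2 than in iPS line 1, with a difference of -0.4178 (SE 0.116, adjusted p = 0.0205), and than in iPS line 3, with -0.3431 (SE 0.116, adjusted p = 0.0398). The Nqo1 calls were lost under 4 and 9 of the 20 alternatives.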

How the results depend on the processing

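Of 9 calls among the 10 genes over all comparisons, 4 were kept under every alternative, namely Txnip in iPS line 2 against ES control, line 1 and line 3, and Nqo1 in line 2 against ES control. The other 5 were lost under some, 5 further results were gained under some, and no call changed direction. For the iPS mean against ES control, 2 genes were called, and 0 were called without a variance trend, without iPS line 2 and with line means as samples, where 2, 3 and 0 genes had an unadjusted limma p under 0.05. Over all 14004 genes, 288 were called without a variance trend and 491 without iPS line 2, in place of 1022. With line means as samples the loss of calls covers every gene tested. Leaving out 1 array gave 0 to 2, with 0 without the second ES array (3 at an unadjusted p under 0.05) and 1 without the first. For line 2 against line 1, the count of 2 became 1 without a variance trend, and leaving out some single arrays lowered it. It became 3 after median centring and 3 when probe sets of a gene were averaged. Of 14004 genes, 3260 were called in the main fit, 1854 without a trend, 3108 after centring and 2428 when averaged. For line 2 against line 3, the count of 2 became 4 after median centring and 4 when probe sets of a gene were averaged. Of 14004 genes, 4363 were called in the main fit, 4006 after centring and 3481 when averaged. The count was 3 with quantile normalization (4009 genes called), with pseudocount 50 (4428) and with signal above the floor in all 8 arrays (4407 of 10574). It was 1 without a low-signal filter (3961 of 18193), without a trend (3064), with each probe set tested on its own (4106) and with only the groups compared (4138). Leaving out some single arrays also lowered it. In the F test, 2 became 4 when probe sets were averaged, which adds Gclm's dimmer probe set to its average, and 1 without a trend. It became 3 after quantile normalization and 3 without probe sets ending in _x_at or _s_at. Of 14004 genes, the F test called 4299 in the main fit, 3188 when averaged, 2131 without a trend and 3963 after quantile normalization. Without _x_at and _s_at probe sets it called 4115 of 13672. With the replicate block, the iPS mean gave 2 calls and line 2 against line 3 gave 3 in place of 2, where 1034 and 4395 of 14004 genes were called. The replicate numbers did not pair the arrays, since correlations of same-numbered deviations lay between -0.0111 and 0.0298. Median centring moved the share of calls that were higher to 46% in line 2 against ES control, in place of 60.4%, to 62.8% in place of 52% in line 1, and to 50.8% in place of 38% in line 3. Between lines it was 34.8% in place of 59.1% for line 2 against line 1, and 41.3% in place of 61% for line 2 against line 3.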
